A study of Mus musculus with 8 samples.

Results

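Clones A1 and C7 are separate mouse embryonic stem cell (mESC) lines derived from E14 cells, and both lack the paralogs PWWP2A and PWWP2B (*Pwwp2a/b* DKO). With the same genes deleted in both, a difference between their maps of transcription start sites (TSSs) is a difference that the labelled genotype does not describe. The maps were made by CAGE-seq of nuclear RNA, a method that captures the cap of RNA and sequences the 5′ ends behind it, and they hold tag clusters, that is, stretches of nearby start sites on 1 strand. The A1 map held 33005 clusters and the C7 map 32870, so that the comparison used 65875 of the 98732 clusters of the series and 5 of its 8 libraries. A cluster counted as found in both clones where both maps shared at least 1 bp of it in the same orientation, and otherwise as an A1-only or C7-only cluster. Wild-type E14 cells (32857 clusters, 3 libraries) were used to say in which clone a site departed from the parental line. The cells of all 3 lines were grown undifferentiated, in medium with serum and leukaemia inhibitory factor.

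A1 and C7 were each a single clone, and E14 was the wild-type line. There were 2 libraries for A1 and 3 each for C7 and E14, and the libraries of a line had been merged into 1 map. The score of every cluster was 0, so neither signal nor depth is known from the maps, and library number and clone cannot be told apart. Clusters of 1 map are not replicates of a clone, and for this reason shares are given with 95% Wilson intervals, which cover counting error only, and no p-value was calculated across clusters.

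PWWP2A and PWWP2B read histone H3 trimethylated at lysine 36, a mark of transcribed gene bodies, and join the histone deacetylase subunits of the NuRD complex. The dominant TSS of a cluster is the base with the most 5′ ends. Many mammalian promoters initiate over a broad stretch with several nearly equal bases, whereas others use a sharp site, and RNA polymerase II prefers to start on a purine (A or G) that follows a pyrimidine (C or T), the core of the initiator.

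The promoters of Ptges3, Pdxdc1, Bicd1 and Utf1 show what the difference between the clones looked like at the level of single bases, and were chosen because their dominant TSSs lay among the farthest apart. Each sequence runs 5′ to 3′ on the strand of the gene, and the capitals mark the base before the dominant TSS and the dominant TSS itself. The bases were read from RefSeq promoter windows (GRCm38.p6) or GENCODE M21 transcripts, which share the mm10 assembly of the clusters. Ptges3 A1 lies at chr10:128058939-128058963 and Ptges3 C7 at chr10:128059103-128059127 on the plus strand. Pdxdc1 A1 lies at chr16:13902966-13902990 and Pdxdc1 C7 at chr16:13903097-13903121 on the minus strand. Bicd1 A1 lies at chr6:149408969-149408993 and Bicd1 C7 at chr6:149409061-149409085 on the plus strand. Utf1 A1 lies at chr7:139943807-139943831 and Utf1 C7 at chr7:139943886-139943910 on the plus strand.
Ptges3 A1: gagcctggaaacggCGattgcgcac
Ptges3 C7: ctctccgcgcggtgCAttctgggca
Pdxdc1 A1: gcgggaggcggaagTAgtgcccagc
Pdxdc1 C7: cctagccccgccttCAgcaagccgc
Bicd1 A1: gagaggaagaggacCAgttggagtc
Bicd1 C7: tgggcggtggaccgCAgtgacgcgg
Utf1 A1: tctggaggagccctCCtctctggtg
Utf1 C7: ccccggaggttgccCGctttttctc
At Ptges3, Pdxdc1 and Bicd1 a pyrimidine preceded a purine at the dominant TSS of both clones, although the sites were different. At Utf1 this pair of bases was present at the C7 position and absent from the A1 position.

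Before the clones were set against each other, their identity as mESCs was examined. All 8 listed mESC markers (Pou5f1, Nanog, Sox2, Zfp42, Klf4, Esrrb, Tfcp2l1 and Dppa5a) had clusters in A1, C7 and E14. Of 6 mesoderm markers none had a cluster in any line. Both clones had clusters at the same number of listed markers of the other cell types, with 2 of 6 for two-cell-like cells, 3 of 6 for primitive endoderm, 3 of 6 for neuroectoderm, 3 of 6 for trophoblast and 5 of 6 for fibroblasts. E14 had the same counts except for fibroblasts, with 4 of 6. Zscan4b, which the two-cell-like list leaves out, had a single-base cluster in A1 and none in C7 or E14. It was singled out after the values had been seen. Without signal values, these counts cannot give the share of differentiated cells. At Pwwp2a the same 2 clusters were present in all 3 lines, and the dominant TSS of its promoter was at base 43682027 of chromosome 11 in each, while Pwwp2b had no cluster in any line. The presence of a start site does not show whether a coding sequence is intact, and so the deletions were not checked by these maps.

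The clones shared almost all of their start sites. Of the A1 clusters, 98.8% (95% Wilson interval, 98.7 to 98.9) were found in C7, and of the C7 clusters, 99.2% (99.1 to 99.3) were found in A1. This left 387 A1-only clusters, or 1.17% of the A1 map, and 264 C7-only clusters, or 0.803% of the C7 map. For comparison, 365 A1 clusters and 255 C7 clusters were absent from E14, while 233 and 246 E14 clusters were absent from A1 and C7, respectively. These 3 comparisons share maps and are not independent. The start and end were the same in 32177 of the 32567 clusters (98.8%) that matched one-to-one between the clones, and in 99.1% and 99.4% of those matched between E14 and A1 or C7. Whether borders were set jointly over the lines is not given in the sources used here, and these shares are therefore not read as agreement between the clones.

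The clone-only clusters were unevenly distributed over the genome. Promoter clusters were those with the dominant TSS no more than 500 bp from a GENCODE transcript start of matching orientation. The others were assigned to exons and then introns of genes on their own strand, and otherwise to intergenic sequence. Intergenic clusters can thus lie inside a gene on the other strand. At promoters the clones were near each other, with 103 A1-only clusters (0.518% of the A1 promoter clusters, 0.428 to 0.628) and 112 C7-only clusters (0.563%, 0.469 to 0.678). Exonic clusters were likewise close, with 53 A1-only (1.23%, 0.941 to 1.60) and 66 C7-only clusters (1.53%, 1.20 to 1.94). Introns and intergenic sequence differed by more than the counting error. A1 had 63 intronic clusters that C7 lacked (2.06%, 1.61 to 2.62), whereas C7 had 19 that A1 lacked (0.629%, 0.403 to 0.980). These intronic counts were 78 and 54 when clusters with an interquantile region (the part between quantiles 0.1 and 0.9 of the signal) under 3 bp were left out of both maps, and 77 and 35 when a reciprocal overlap of 50% was required. The exonic counts were 110 and 70 without the clusters under 3 bp, so that A1 then had the more. In the intergenic category, A1 had 168 clusters of its own (2.92%, 2.51 to 3.39) and C7 67 (1.19%, 0.935 to 1.5).

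**Figure D1:**
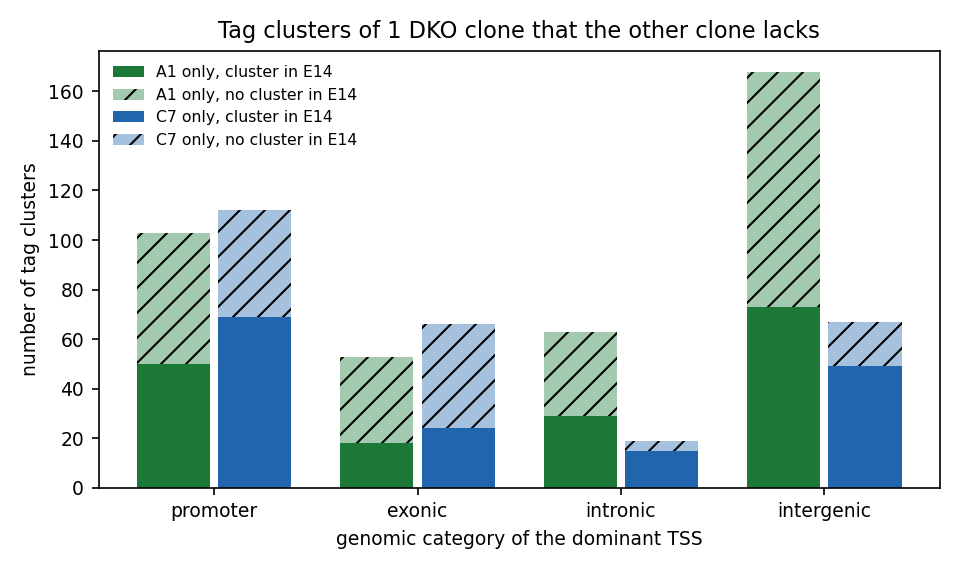
Number of tag clusters found in 1 DKO clone only (vertical axis) by the genomic category of the dominant TSS (horizontal axis), for A1 (green) and C7 (blue). Solid parts were also present in E14 and hatched parts were not. A1 and C7 have similar bars at promoters (103 and 112) and exons (53 and 66). A1 has the taller bars in introns (63 against 19) and in the intergenic category (168 against 67).

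The intergenic excess of A1 was found upstream of genes and among clusters outside the other classes. Distance to the 3′ ends of genes was not used, so the clusters outside the other classes can include sites just downstream of a gene. Among clusters that lay neither in the 10 kb upstream of a gene, nor inside a gene on the other strand, nor within 1000 bp of a start there, A1 had 90 A1-only clusters among 1789 (5.03%), and C7 had 26 C7-only clusters among 1726 (1.51%). In the 10 kb upstream of a gene, A1 had 35 A1-only clusters among 954 (3.67%), and C7 had 12 C7-only clusters among 930 (1.29%). Inside genes on the other strand the counts were 35 for A1 and 23 for C7. Within 1000 bp of a start on the other strand, where promoters fire divergently, they were 8 and 6. Within exons, coding sequence held 43 A1-only and 47 C7-only clusters, and UTRs held 6 and 18.

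Clone-only clusters were narrow. Their median width was 1 bp in both clones, against 16 bp over all clusters of either. In A1, 267 of the 387 (69.0%) consisted of a single base, and in C7, 139 of the 264 (52.7%), whereas single-base clusters made up 1.58% of all A1 and 1.18% of all C7 clusters. No clone-only cluster lay within 20 bp of a cluster of the other clone on its strand, which the distance used in clustering may fix, and 92 of the A1-only and 83 of the C7-only clusters lay within 100 bp of one.

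Width and presence in wild-type cells went together. In E14, 170 A1-only clusters (43.9%) and 157 C7-only clusters (59.5%) were present, and at these sites C7 and A1, respectively, was the line without a cluster. Of the single-base clusters, E14 had 60 of 267 in A1 (22.5%, 17.9 to 27.8) and 34 of 139 in C7 (24.5%, 18.1 to 32.2). Of the clusters of 2 to 9 bp, it had 75 of 83 (90.4%, 82.1 to 95) and 87 of 89 (97.8%, 92.2 to 99.4). Of those of 10 bp or more, it had 35 of 37 (94.6%, 82.3 to 98.5) and all 36 (90.4 to 100). The start sites that belonged to 1 clone and to no other line were therefore nearly all single bases. Both wide exceptions were in A1. One was at a promoter of Sept4, a septin of the cytoskeleton, and the other was an intergenic cluster of 21 bp on the minus strand of chromosome 8 from 19785226 to 19785246, which was singled out after its values had been seen.

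Wide clone-only clusters were rare, with 37 of at least 10 bp in A1 and 36 in C7. The widest in A1 were those of Naa15 (26 bp), a subunit of an N-terminal acetyltransferase, Axl (25 bp), a receptor tyrosine kinase, the transcription factor Atf2 (22 bp), Card10 (21 bp), and an intron of the nuclear import receptor Ipo7 (21 bp). In C7 they were those of Cubn (31 bp), the receptor cubilin, the ribosomal protein gene Rpl8 (28 bp), Kctd2 (27 bp), and intergenic sites on chromosome 3 from 9608809 to 9608839 (31 bp) and on chromosome 17 from 45569530 to 45569554 (25 bp). Each of these 10 was present in E14, whereas the intergenic cluster of chromosome 8 described above, which was as wide as those of Card10 and Ipo7 and fell outside the 10 only by the way the tie was broken, was not.

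Among the autosomes, the clones stood apart most on chromosome 8. There, 40 of 1835 A1 clusters (2.18%, 1.60 to 2.95) were absent from C7, and 7 of 1804 C7 clusters (0.388%, 0.188 to 0.799) were absent from A1. On all the other chromosomes together, the shares were 1.11% (1.00 to 1.24) and 0.827% (0.732 to 0.934). Against E14, A1 had the same excess, with 36 A1 clusters of chromosome 8 (1.96%, 1.42 to 2.70) absent from the wild type and 1.06% (0.948 to 1.18) elsewhere. C7 had no such excess against E14, with 0.776% (0.463 to 1.30) on chromosome 8 and 0.776% (0.684 to 0.880) elsewhere. In the other direction, 18 of 1808 E14 clusters of chromosome 8 (0.996%, 0.631 to 1.57) were absent from C7 and 7 (0.387%, 0.188 to 0.797) from A1. The 40 A1-only clusters comprised 11 promoter, 9 exonic, 4 intronic and 16 intergenic ones. E14 had 16 of the 40, and at these C7 was the line without a cluster. Those absent from E14 included 3 at Nsd3, a methyltransferase for lysine 36 of histone H3, 2 at Clcn3, a chloride transporter of endosomes, and 2 at Smarca5, a nucleosome remodeller. Chromosome 8 and Smarca5 were singled out after the values had been seen, and the number of its copies in either clone is not known from these data.

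Chromosome Y also had A1-only clusters, 7 of 219 (3.20%, 1.56 to 6.45), and no C7-only cluster among 214 (0 to 1.76), with intervals that overlapped. Of these 7, 5 were present in E14. The others, absent from E14, lay in introns of Gm47283 at bases 90797952 and 90799525. Among those in E14, 1 lay in an intron of Uty, a Y-linked histone demethylase gene, at bases 1163871 to 1163872. C7 had 5 of the 6 Uty clusters and all clusters of Ddx3y, Eif2s3y and Kdm5d. In the opposite direction, chromosome 14 had the largest C7-only share of the autosomes, with 19 of 1134 clusters (1.68%, 1.08 to 2.60), against 14 of 1130 A1-only ones (1.24%, 0.739 to 2.07).

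**Figure D2:**
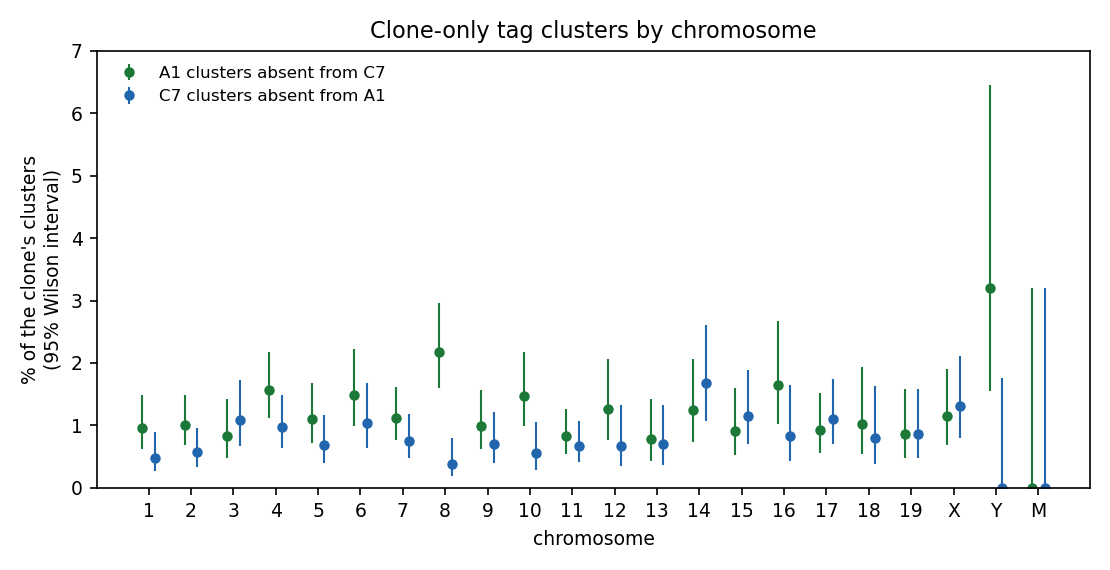
Share of the clusters of each clone (vertical axis, percent, with 95% Wilson intervals) that the other clone lacked, by chromosome (horizontal axis), for A1 (green) and C7 (blue). On chromosome 8 the A1 point (2.18%) and the C7 point (0.388%) have intervals that do not meet, and on Y only A1 has clusters of its own.

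At the level of genes, few were detected in 1 clone alone. A gene was assigned every cluster whose dominant TSS lay in its body or up to 500 bp upstream on its strand. Of 13151 genes with a cluster in A1, 44 (0.335%) had none in C7, and of 13135 in C7, 28 (0.213%) had none in A1. Each of these genes rested on a single cluster. E14 had a cluster at 21 of the 44 and at 17 of the 28.

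The A1-only genes comprised 31 protein-coding genes among 44, and the C7-only genes 12 protein-coding genes and 10 processed pseudogenes. Of the clusters at protein-coding genes, 0.780% in A1 and 0.722% in C7 were clone-only, against 1.17% and 0.803% of all clusters. The widest of the protein-coding A1-only genes were Axl (25 bp, chromosome 7, 25788671 to 25788695), Card10 (21 bp, chromosome 15, 78802891 to 78802911), a scaffold protein of NF-κB signalling, and Sept4 (19 bp, chromosome 11, 87578436 to 87578454). They were followed by Sh3tc2 (18 bp), the anion channel subunit Lrrc8e (6 bp), the ciliary gene Ccdc113 (4 bp), the heparan sulfate sulfotransferase Hs3st1 (4 bp), the presynaptic scaffold gene Ppfia3 (4 bp), the transcription factor Nfe2l3 (3 bp) and the bile acid transporter subunit Slc51a (3 bp). Of these 10, Sept4 alone had no cluster in E14.

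The widest of the protein-coding C7-only genes were C1rl (19 bp, chromosome 6, 124493125 to 124493143), a serine protease related to complement C1r, Pnoc (14 bp, chromosome 14, 65404843 to 65404856), the precursor of the neuropeptide nociceptin, and Pcnx2 (11 bp, chromosome 8, 125898305 to 125898315). After these came the kallikrein Klk1 (7 bp), the neuronal gene Cend1 (6 bp), the mitochondrial carrier Slc25a43 (5 bp), the splicing regulator Mbnl3 (4 bp), Mblac2 (3 bp), BC051142 (2 bp) and Ccdc71l (1 bp). Ccdc71l alone among these 10 lacked a cluster in E14.

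Start sites of C1rl, Mbnl3 and Hs3st1 are shown as examples of such promoters, with the capitals marking the base before the dominant TSS and the dominant TSS. They lie at chr6:124493110-124493134 (plus strand), chrX:51205940-51205964 (minus) and chr5:39644600-39644624 (minus), and all were read from RefSeq promoter windows (GRCm38.p6).
C1rl C7: cctactccctggccTGagccaagca
Mbnl3 C7: gaagaaagtgccccCAgtcggagcg
Hs3st1 A1: tgcaaggtcctcagTGcgctgcagc
Each of these dominant TSSs was a purine after a pyrimidine, as were 12 of the 17 with known sequence among the 20 genes named. Those of Card10, Nfe2l3, Slc51a, Pcnx2 and BC051142 were not.

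At processed pseudogenes, which are retrocopies of mRNAs, 10 of 277 C7 clusters (3.61%, 1.97 to 6.52) were C7-only and 2 of 269 A1 clusters (0.743%, 0.204 to 2.67) were A1-only, with intervals that overlapped. Of the 10, 2 were at copies of ribosomal protein genes, Rps12-ps9 and Rps25-ps1. Some of these clusters were also assigned to a second gene. In C7 these were Gm11478 (also Vmp1), BC002163 (also Zbtb20), Gm49594 (also Kalrn) and Rps12-ps9 (also Gm20388). In A1 it was Gm2027 (also Pnpla8). Retrocopies resemble their parent genes. The authors discarded reads that mapped to more than 1 place, and whether reads of a parent gene were placed at its copy was not tested. At lincRNAs the order was the opposite one, with 12 of 821 in A1 (1.46%, 0.838 to 2.54) and 5 of 812 in C7 (0.616%, 0.263 to 1.43), and these intervals overlapped as well.

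In addition to the genes above, clone-only clusters occurred beside shared ones. Altogether, 208 genes had an A1-only cluster (1.58% of the genes with clusters in A1) and 203 a C7-only cluster (1.55%). The number of clusters was equal in both clones at 12756 genes and differed by at most 3 at the others. Cep83, a gene of the centriole, had 10 clusters in A1, 7 in C7 and 8 in E14, and the 3 A1-only ones were exonic. Nsd3 had 4 clusters in A1 and 1 in C7 and E14, and its A1-only clusters were single bases at 25602715, 25602997 and 25664768 of chromosome 8, 1 of them at a promoter and 2 in introns. Clcn3 (4 and 2), the synaptic scaffold gene Dlg1 (8 and 6) and Gm26992 (31 and 29) had 2 more in A1.

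In C7 the excess was greatest at Phc1, a subunit of the Polycomb repressive complex PRC1, with 27 clusters in C7, 24 in A1 and 25 in E14. Actb, the gene for β-actin, had 17 in C7 and 15 in A1. The chromatin remodeller gene Atrx had 45 and 43, the kinetochore gene Cenpf 19 and 17, and Fblim1 7 and 5. Several of these genes have many clusters along their exons, so that a difference of 2 or 3 is a small part of their total.

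The dominant TSS differed far more often than the presence of a cluster. Of the 32567 clusters matched one-to-one between A1 and C7, 8196 (25.2%) had their dominant TSS at another base. The distance was short, with a median of 5 bp (quartiles 1 and 13 bp) and a maximum of 267 bp. In 2082 clusters, or 25.4% of those that moved, it was 1 bp. In 1116 clusters (3.43%) it was at least 20 bp, in 93 at least 50 bp and in 4 at least 100 bp.

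The clones differed from each other at least as often as either differed from the wild type. The dominant TSS was at another base in 7747 of 32593 clusters between E14 and A1 (23.8%) and in 6892 of 32595 between E14 and C7 (21.1%), and at least 20 bp away in 3.11% and 2.96%. Over the 32415 clusters matched in all 3 lines, the shares were 25.2% (24.8 to 25.7) between A1 and C7, 23.7% (23.3 to 24.2) between E14 and A1 and 21.1% (20.7 to 21.5) between E14 and C7. The 3 pairs share maps, and each value is therefore given beside the others without a test of their difference.

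**Figure D3:**
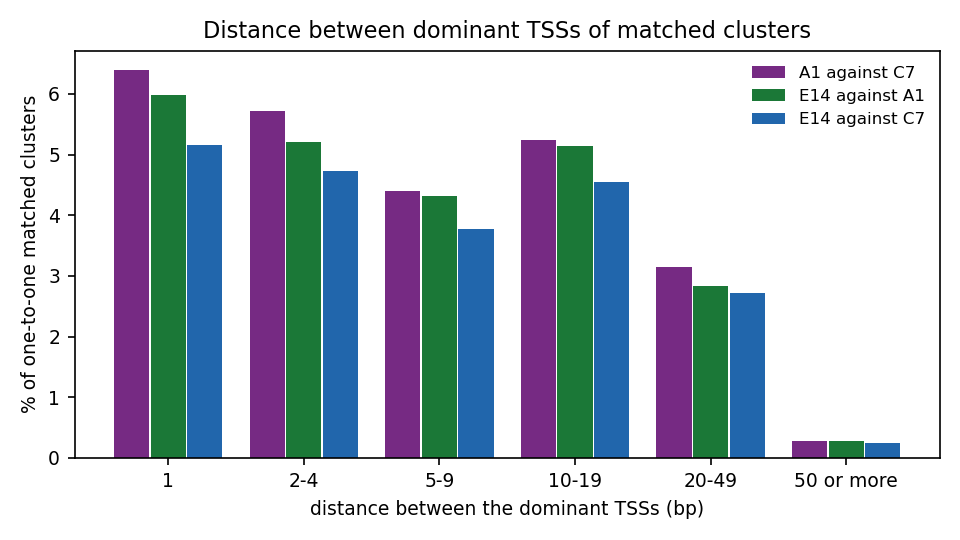
Share of one-to-one matched clusters (vertical axis, percent) by the distance between their dominant TSSs (horizontal axis, bp) for A1 against C7 (purple), E14 against A1 (green) and E14 against C7 (blue). Clusters with the same dominant TSS are not drawn. In every class the bar of A1 against C7 is the tallest, from 6.39% at 1 bp to 0.286% at 50 bp or more.

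Which line stood alone could be read from the same 32415 clusters. All 3 lines had the same dominant TSS in 21493 (66.3%, 65.8 to 66.8). A1 stood apart from E14 and C7 in 4084 (12.6%, 12.2 to 13), and C7 stood apart from E14 and A1 in 3224 (9.95%, 9.62 to 10.3). Both clones shared a base that differed from that of E14 in 2746 (8.47%, 8.17 to 8.78), which was fewer than the clusters in which either clone stood alone. In 868 each line had a base of its own. A1, the clone that stood alone more often, was the line with 2 libraries, and the part of library number in this was not tested.

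At promoters the dominant TSS differed less often than in other clusters, but over longer distances, and the order depended on the shortest distances. The dominant TSS differed between the clones in 22.7% of promoter clusters (22.2 to 23.3), 27.7% of exonic (26.4 to 29.1), 31.4% of intronic (29.7 to 33.1) and 28.5% of intergenic ones (27.3 to 29.7). The median distance was 7 bp at promoters, 1 bp in exons and introns and 4 bp in intergenic clusters. At least 20 bp separated the clones in 862 promoter clusters (4.37%, 4.09 to 4.66), 95 exonic (2.23%, 1.83 to 2.72), 38 intronic (1.27%, 0.926 to 1.74) and 121 intergenic clusters (2.17%, 1.82 to 2.58). When a distance of 1 bp was allowed, 80.4% of promoter clusters had the same dominant TSS, against 86.2% of exonic, 85.9% of intronic and 77.9% of intergenic ones, so that promoters then differed more often than exons and introns. In each category the share at another base was highest between A1 and C7 and lowest between E14 and C7.

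**Figure D4:**
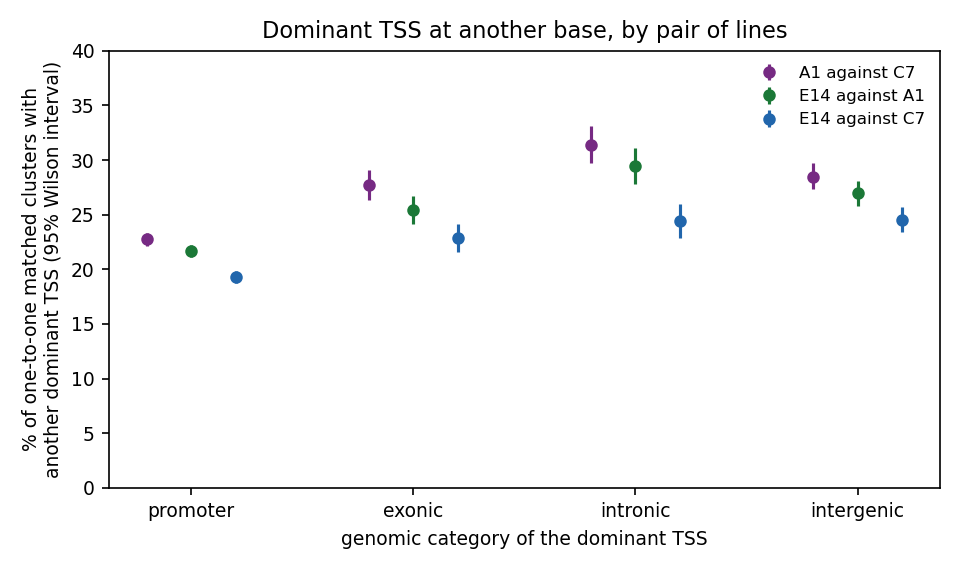
Share of one-to-one matched clusters whose dominant TSS was at another base (vertical axis, percent, with 95% Wilson intervals) by genomic category (horizontal axis) for the 3 pairs of lines. A1 against C7 (purple) is the highest in each category, from 22.7% at promoters to 31.4% in introns.

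The width of a cluster bore on these shares. The interquantile region measured 1 bp in A1 in 635 matched clusters, and 2.52% of these (1.56 to 4.05) had moved. The share was 26.5% (25.4 to 27.7) at 2 bp, 27.1% (26.1 to 28.0) at 3 to 10 bp, 26.6% (25.7 to 27.5) at 11 to 30 bp, 22.5% (21.6 to 23.4) at 31 to 100 bp and 15.3% (10.8 to 21.2) above this. The median distance grew with the width, from 1 bp at 2 bp to 18 bp at 31 to 100 bp. A distance cannot exceed the width of the cluster.

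A1 and C7 differed little in direction overall. Among the clusters that moved, A1 was the upstream one in 51.4% (50.3 to 52.5). Among those at least 20 bp apart, however, A1 was upstream in 625 of 1116 (56.0%, 53.1 to 58.9), and at promoters in 491 of 862 (57.0%, 53.6 to 60.2). The width of the interquantile region was the same in both clones in 69.0% of clusters. It was wider in A1 in 5353 and wider in C7 in 4755, or 53.0% in A1 (52.0 to 53.9) of those that differed, and this order was turned when the whole cluster was measured (37.4% wider in A1), although whole widths differed in only 390 clusters. Against E14, both clones had the wider region more often, A1 in 6623 clusters against 3410 and C7 in 6041 against 3451.

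The largest distances at promoters of protein-coding genes were found at Ptges3, Ssr2, Pdxdc1, Krba1, Bicd1, Cstf2, Setd3, Chic1, Pithd1 and Utf1. At Ptges3, which encodes p23, a co-chaperone of HSP90, the cluster ran from 128058916 to 128059165 of chromosome 10 in both clones. Its dominant TSS was at 128058954, the annotated start of the gene, in A1 and E14, and 164 bp downstream at 128059118 in C7. At Ssr2, a subunit of the translocon-associated complex of the endoplasmic reticulum, A1 and E14 used base 88575765 of chromosome 3 and C7 base 88575920, which was 155 bp downstream. In these clusters C7 was the line that stood apart.

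A1 stood apart at Pdxdc1 and Krba1. At Pdxdc1, on the minus strand of chromosome 16, E14 and C7 had the dominant TSS at 13903106 and A1 had it 131 bp downstream at 13902975. At Krba1 on chromosome 6, E14 and C7 used 48395641 and A1 used 48395740, 99 bp downstream. The interquantile region of Krba1 was 109 bp in both clones, from 48395632 to 48395740, so that its dominant TSS moved inside an unchanged region.

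At Bicd1, a dynein adaptor, C7 had its dominant TSS at 149409076, 92 bp downstream of the base 149408984 used by A1 and E14. At Cstf2, a factor of mRNA 3′ end cleavage, it was 92 bp downstream as well, at 134059267 of chromosome X instead of 134059175. At Chic1 it was 88 bp downstream (103356591 instead of 103356503), and at Utf1, a transcription factor gene of undifferentiated mESCs, 79 bp downstream (139943901 instead of 139943822). In each of these 4 promoters A1 and E14 used the same base.

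All 3 lines differed at Setd3 and Pithd1. At Setd3, an actin histidine methyltransferase gene on the minus strand of chromosome 12, the dominant TSS was at 108179312 in C7, 108179277 in E14 and 108179220 in A1. At Pithd1, on the minus strand of chromosome 4, it was at 135987245 in A1, 135987217 in E14 and 135987162 in C7, so that E14 lay between the clones at both genes. Outside promoters, the longest distance was that of an exonic cluster of the nuclear noncoding RNA Malat1 on chromosome 19, where A1 used 5799643 and C7 and E14 used 5799376, 267 bp downstream.

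**Figure D5:**
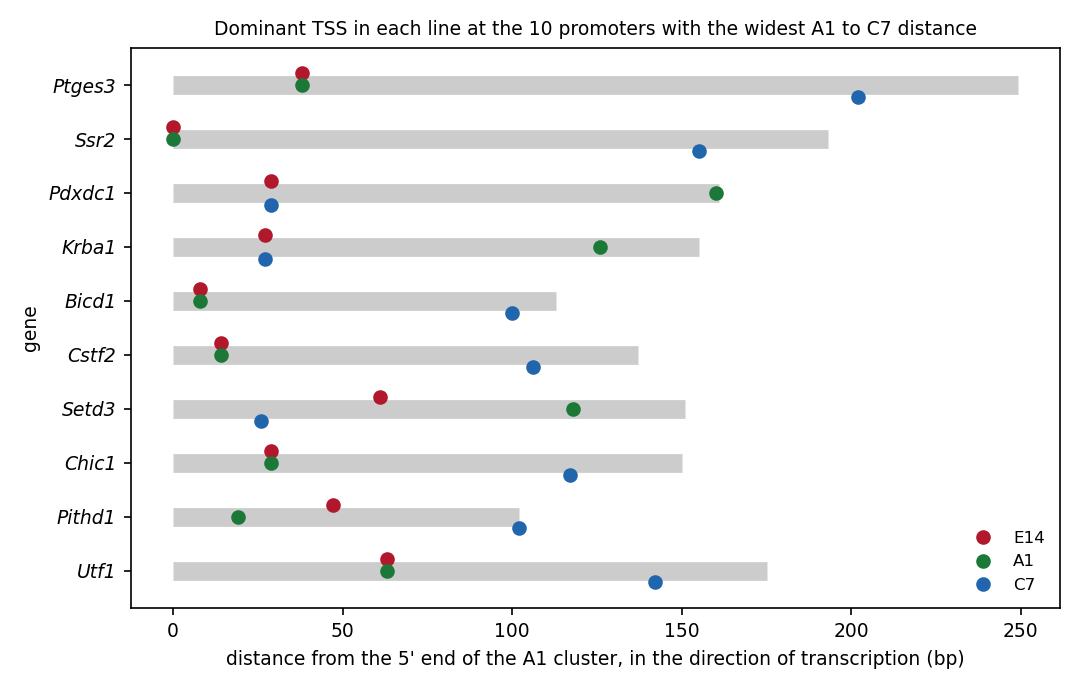
Position of the dominant TSS in E14 (red), A1 (green) and C7 (blue) within the promoter clusters of the 10 genes with the longest distance between the clones. The horizontal axis is the distance in bp from the 5′ end of the A1 cluster, and the grey bars are the A1 clusters. E14 and A1 coincide at Ptges3, Ssr2, Bicd1, Cstf2, Chic1 and Utf1, E14 and C7 coincide at Pdxdc1 and Krba1, and the 3 lines differ at Setd3 and Pithd1.

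Sequence at the dominant TSS was read for promoter and exonic clusters, for which at least 80% of positions were covered by the RefSeq windows or GENCODE transcripts. The dinucleotides CA, CG, TA and TG, that is, a pyrimidine before a purine, were counted on the strand of the cluster. At promoter clusters with the same dominant TSS in both clones they were present in 75.7% (75 to 76.5, n = 13602). At promoters that had moved, the share was 65.1% (63.6 to 66.5) for the A1 base and 68.4% (66.9 to 69.8) for the C7 base. At promoters that had moved by at least 20 bp it was 75.4% (72.3 to 78.3) in A1 and 79.2% (76.2 to 81.9) in C7, close to that of promoters that had not. Both bases of a moved promoter had the dinucleotide in 51.1% and neither in 18.2%.

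Exonic start sites had a different sequence. The dinucleotides were present at 10.0% of exonic dominant TSSs that were the same in both clones (9.01 to 11.1), and at 11.3% of the A1 bases (9.64 to 13.3) and 11.4% of the C7 bases (9.71 to 13.4) of those that had moved. Intronic and intergenic positions were covered in too few cases, and their sequence was not analysed here.

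The genes of the PWWP2A/B complex and of NuRD were examined next. Of 17 listed genes, 15 had clusters in both clones, and none had a clone-only cluster. The dominant TSS of a promoter cluster differed at 10 of the 15 genes, against 31.8% of all genes with a promoter cluster in both clones. It differed by at least 20 bp at 2 of the 15, against 7.17% of all genes. Here and below, a gene counted if any of its clusters was clone-only or any of its promoter clusters differed. Genes with many clusters, such as Chd4 with 12 matched promoter clusters and Gatad2a with 6, thus had more occasions to count. Shares per cluster were not calculated for the lists. At Mta1, which bridges histone deacetylase to the rest of the complex, A1 and E14 used base 113098216 of chromosome 12 and C7 base 113098248, 32 bp downstream. At Gatad2a, which links the deacetylase module to the CHD remodeller, C7 and E14 used 69974327 of chromosome 8 and A1 used 69974401, 74 bp upstream on the minus strand. The other distances were at most 17 bp (Chd4), including 13 bp at the deacetylase gene Hdac1, and the bases were the same at Hdac2, Mta2, Chd3 and Gatad2b.

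Genes that write, read or remove methylation of lysine 36 of histone H3 and of DNA were listed as well. Of 26 listed, 25 had clusters in both clones, and the dominant TSS of a promoter differed at 13 of them (31.8% of all genes) and by at least 20 bp at 3 (7.17% of all genes). Some of these genes had many matched promoter clusters, such as Tet1 (13) and Kdm2b (7), and the share per cluster was not calculated. At Nsd1, a methyltransferase for lysine 36, A1 stood apart at a pair of promoter clusters, by 21 bp (55210462 in A1 and 55210441 in C7 and E14) and by 40 bp (55211856 and 55211816). At the demethylase gene Kdm2b, A1 stood apart by 26 bp, and at the demethylase gene Kdm4b, C7 stood apart by 27 bp. A1-only clusters were present at 2 of the 25 genes (1.58% of all genes) and C7-only clusters at 3 (1.55%). Apart from Nsd3, A1 had its own cluster at Tet1, a DNA demethylase, in an intron (62832345 to 62832347 of chromosome 10). C7 had its own at the DNA methyltransferase gene Dnmt3a (3896028 to 3896029 of chromosome 12, also in E14), at Nsd1 (55314185 of chromosome 13) and at Psip1, a reader of lysine 36 methylation (83463613 of chromosome 4). The dominant TSSs of Setd2 differed by at most 4 bp and those of Dnmt3b by 16 bp.

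Among the 8 mESC markers, 2 genes had a cluster in C7 that A1 lacked, against 1.55% of all genes. At Sox2 it was a single base, 34650849 of chromosome 3, beside 8 clusters shared by both clones, and E14 lacked it. That base was also assigned to Sox2ot. At Esrrb it was 8 bp wide, from 86504904 to 86504911 of chromosome 12, and E14 had it. In C7, Sox2 had 9 clusters and Esrrb 13, so that both genes had many occasions to count. The promoter clusters of Nanog, Zfp42, Klf4 and Tfcp2l1 had identical dominant TSSs in both clones, and those of Pou5f1, Sox2, Esrrb and Dppa5a differed by at most 4, 1, 10 and 5 bp, so that promoters moved at 4 of 8 markers, against 31.8% of all genes.

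Imprinted genes, which are expressed from 1 parental allele and vary among mESC lines, had an A1-only cluster at 5 of the 43 genes with clusters in A1 (Rian, Usp29, Ube3a, Trappc9 and Dlk1) and a C7-only cluster at 1 of 42 (Slc38a4), against 1.58% and 1.55% of all genes. At Dlk1, a ligand of the Notch family expressed from the paternal allele, this was the only cluster in any line, a single base at the annotated transcript start 109453491 of chromosome 12. The neighbouring noncoding gene Rian had 10 clusters in A1 and 9 in C7 and E14, and Meg3, in the same imprinted domain, had 18 in each line. At Usp29, A1 shared its cluster with E14. At Slc38a4, an amino acid transporter, the promoter had its dominant TSS at 97055956 in C7 and E14 and 55 bp downstream at 97055901 in A1, and an exonic cluster was present in C7 and E14. Promoters moved at 11 of 41 imprinted genes (26.8%) and by at least 20 bp at 1 (2.44%), against 31.8% and 7.17% of all genes.

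Of 26 listed germline genes in the annotation, 21 had clusters in A1 and in C7, and 1, Prdm1, a repressor that acts in germ cell specification, had a clone-only cluster, a single base at 44458577 of chromosome 10 in A1 and E14, against 1.58% of all genes with an A1-only cluster. Their promoters moved at 4 of 21 genes (19%), against 31.8% of all genes, and none by 20 bp. Of the remaining genes examined, Wtap, a subunit of the RNA methyltransferase complex, had an A1-only cluster of a single base at its annotated start, 12994169 of chromosome 17, which was absent from E14. At Hnrnpk and Nap1l1 all clusters were shared, and their promoter clusters differed by at most 3 bp and 0 bp.

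The count of clone-only promoter clusters also depended on how a match was defined. When clusters within 100 bp of each other were matched, A1 and C7 each had 60, and when clusters with an interquantile region under 3 bp were left out of both maps, A1 had 219 and C7 195, since narrow partners were then removed as well.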

How the data were processed

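The authors extracted nuclear RNA, prepared CAGE-seq libraries without PCR, mapped reads to mm10 and clustered TSSs with CAGEr after power-law normalization (quantiles 0.1 and 0.9), merging the replicates of each line. The submitters' processing notes list STAR (2.4.2a), SAMtools (1.3) and bedtools (2.17.0). The paper states that TSS clusters less than 20 bp long were aggregated across replicates. What signal a cluster had to reach is not given in the sources used here. The deposited values are positions, namely cluster borders, interquantile blocks and the dominant TSS, and their scores are all 0.

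From these positions, matches, distances, categories and genes were worked out in Python (3.11.15) against GENCODE M21, with NumPy (2.4.6), intervals from SciPy (1.17.1) and plots from Matplotlib (3.10.9). The functions were tested on simulated clusters. The genes named were the 10 first clone-only genes per clone (protein-coding first, then by cluster number and width), the 5 largest differences in cluster number per direction, the 10 longest promoter distances, the 5 widest clone-only clusters, listed genes with a clone-only cluster or a distance of at least 20 bp, the deleted genes and Wtap, Hnrnpk, Nap1l1 and Ptges3. The members and lists were chosen with earlier results of these data known. Alternatives varied the match, the promoter window, transcripts, minimum width and tolerance. The start site sequence of 1 gene is not reported here.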

Additional observations from a re-analysis of the deposited data

How the results depend on the processing

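Of 141 alternative values, 99 stayed within the interval or within 1.5 times of the value reported. Dropping clusters with an interquantile region under 3 bp gave matched shares of 97.8% (A1) and 98.4% (C7), A1-only counts of 219 at promoters and 110 in exons, C7-only counts of 417 in all, 195 at promoters and 54 in introns, 77 A1-only and 46 C7-only genes, and the same dominant TSS in 74.3% of all, 69.2% of exonic and 69.3% of intergenic clusters. A reciprocal overlap of 50% gave matched shares of 98.5% and 98.9%, 170 A1-only promoter and 35 C7-only intronic clusters. Matching within 100 bp gave 99.1% and 99.4%, and 60 clone-only promoter clusters in each clone, and with E14 matched so, 55.8% of A1-only and 72.7% of C7-only clusters were found there. The dominant TSS was at most 1 bp apart in 81.2% of all, 80.4% of promoter, 86.2% of exonic, 85.9% of intronic and 77.9% of intergenic clusters, at most 5 bp in 87.8%, 86.8%, 89.9%, 91.0% and 88.1%, and at most 10 bp in 92.1%, 91.2%, 93.4%, 95.3% and 92.6%. A promoter window of 100 bp gave the same dominant TSS in 78.3% of promoters. A1 was upstream in 53.5% of moves of at least 10 bp and 66.7% of those of at least 50 bp. A1 was wider in 37.4% by whole cluster width and 51.5% at promoters. The causes were not tested.

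Without chromosome 8, 347 A1-only and 257 C7-only clusters were left, and by the dominant TSS alone, 45 and 29 genes. Both alternatives were chosen after seeing the data.

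No paired analysis was possible because the libraries of each line were merged and no value of a single library was used, and for the same reason no replicate was left out. Neither the spread between libraries nor depth is known from the maps. Absence from a map means that no cluster was called there, not that the site was silent.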
